A study of Homo sapiens with 2 samples.

Results

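The expression of 10 genes of the Hippo pathway was examined in HEK293T, a human cell line of embryonic kidney origin with the large T antigen of SV40. The genes were chosen by name and are the coactivators YAP1 and WWTR1 (which encodes TAZ), the DNA-binding factors TEAD1, TEAD2, TEAD3 and TEAD4, the kinases LATS1 and LATS2, and the scaffold proteins AMOTL1 and AMOTL2. Each of the 10 symbols matched 1 of the 57736 genes measured. The study sequenced poly(A)+ RNA of wild type cells grown in medium with serum to 80% confluency, in 1 group with 2 replicates and reads of 50 nt. The labels name no treatment, and they do not say whether the replicates came from separate cultures, so the spread between them may be technical. The line is a single transformed line in a single state, and no condition was compared with another.

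In the Hippo pathway the kinases STK3 and STK4 activate LATS1 and LATS2, which phosphorylate YAP and TAZ. Phosphorylated YAP and TAZ are held in the cytoplasm or degraded. When LATS activity is low they enter the nucleus, where they bind TEAD factors and raise the transcription of genes for growth and cell adhesion. Crowding of cells is a well-known activator of the pathway, and angiomotins such as AMOTL1 and AMOTL2 bind YAP and keep it outside the nucleus. Most of this control acts on proteins, and RNA levels do not measure it.

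The sum of estimated counts over all genes was 10593491 for replicate 1 and 10104118 for replicate 2. A count of 0 therefore allows up to 3 reads, which is 0.283 and 0.297 CPM (reads scaled to the library total). These limits and the Poisson intervals below cover counting error only, since amplified reads are not independent molecules. The deposited RSEM intervals also cover the sharing of reads among transcripts, and no interval covers amplification. The line was checked against marker lists of other cells. A gene was called detected when each replicate reached 1 TPM (a level per transcript length, scaled to a fixed total). None of 9 kidney epithelium markers was detected, their summed TPM was 0.58 and 1.20, and the tubule transporter gene SLC34A1 and the tubule gene UMOD had 0 counts. The kidney label is used here for the origin of the line, and kidney traits beyond these 9 markers were not tested. Of 7 fibroblast markers 1 was detected, COL1A1, with summed TPM values of 13.4 and 11.8. None of the 4 endothelial markers with a row was detected (0.20 and 0.30 in sum). In bulk RNA fewer cells of a type and less RNA per cell cannot be told apart. The part of other cells in the levels below was not tested.

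All 10 genes were detected, as were 27.7% of all genes and 63.7% of protein-coding genes. The median of their mean TPM values was 21.0, beside 21.2 for the 12345 detected protein-coding genes and 6.50 for all protein-coding genes. The 10 genes together held a TPM of 196 in replicate 1 and 195 in replicate 2. They fell into 7 genes with mean TPM values from 17.0 to 36.9 and 3 genes from 4.17 to 6.25.

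**Figure D1:**
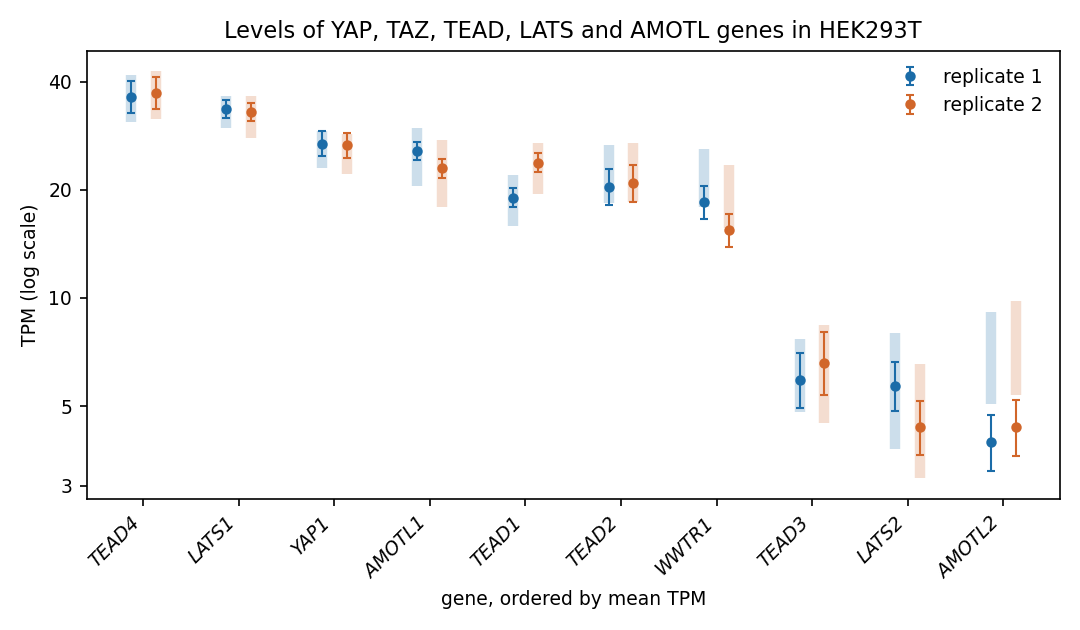
TPM (log scale) of each gene in both replicates, in the order of the mean; points are the values, thin bars the exact Poisson 95% intervals of the count scaled to TPM, and wide bars the RSEM intervals deposited by the authors. TEAD3, LATS2 and AMOTL2 lie apart below the other 7 genes, and the AMOTL2 points lie under their own wide bars.

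The order by mean TPM ran from TEAD4 through LATS1, YAP1, AMOTL1, TEAD1, TEAD2, WWTR1, TEAD3 and LATS2 to AMOTL2. Neighbours were called apart when the values of both replicates did not overlap and the exact Poisson 95% intervals of their counts were apart in each replicate. By this rule 2 of the 9 neighbouring pairs were apart, LATS1 from YAP1 and WWTR1 from TEAD3. The first of these was not apart when the RSEM intervals, a posterior range of TPM that covers the sharing of reads among transcripts, were used in place of the Poisson intervals. WWTR1 exceeded TEAD3 by 2.73-fold ± 0.563 in TPM (SD, n = 2), and this was the gap between the upper 7 genes and the lower 3. Of all 45 pairs, 35 were apart.

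YAP1, on chromosome 11 from 101981178 to 102104155 (GRCh37, plus strand), encodes the coactivator after which the pathway's output is often named. Its TPM was 26.9 in replicate 1 and 26.7 in replicate 2, from 634 and 609 estimated counts. The TPM values lay within each other's Poisson intervals. WWTR1, on chromosome 3 from 149235022 to 149454501 (minus strand), encodes TAZ, a paralogue of YAP. It had a TPM of 18.5 in replicate 1 and 15.4 in replicate 2, from 365 and 355 counts. YAP1 was higher than WWTR1 in both replicates, by 1.46-fold and 1.73-fold, and their Poisson intervals were apart. The log2 ratio of TPM was 0.67 ± 0.18 (SD, n = 2), but 0.32 with the posterior mean TPM, a second estimate deposited by the authors, and by the RSEM intervals the 2 genes were not apart. The WWTR1 value of replicate 2 lay below its own RSEM interval (15.6 to 23.5). In counts, without correction for length, the ratio was 1.74-fold and 1.72-fold. YAP1 stood at percentile 57.1 of the detected protein-coding genes by mean TPM and WWTR1 at percentile 43.1, so both coactivators were expressed near the middle of the range.

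The 4 TEAD genes encode the factors that bring YAP and TAZ to DNA. TEAD4, on chromosome 12 from 3068496 to 3149842 (plus strand), had the highest TPM of all 10 genes, 36.4 in replicate 1 and 37.3 in replicate 2. TEAD1, on chromosome 11 from 12695968 to 12966284 (plus strand), had a TPM of 19.0 and 23.8. TEAD2, on chromosome 19 from 49843852 to 49865714 (minus strand), had a TPM of 20.4 and 20.9, between the values of TEAD1 in the replicates, and the order of TEAD1 and TEAD2 was therefore not settled. TEAD3, on chromosome 6 from 35441374 to 35464856 (minus strand), was the lowest with a TPM of 5.90 and 6.60. TEAD4 was apart from each of the other TEAD genes by the rule above, and its level was 5.91-fold ± 0.369 that of TEAD3 (SD, n = 2). Of the summed TPM of the family, which was 81.8 and 88.6, TEAD4 held 43.3% ± 1.73, TEAD1 25.1% ± 2.58, TEAD2 24.3% ± 1.02 and TEAD3 7.33% ± 0.165 (SD, n = 2).

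The rank of the TEAD genes depended on the correction for length. In estimated counts TEAD1 held 57.5% ± 1.61 of the reads of the family and TEAD4 20.2% ± 0.0428 (SD, n = 2). TEAD1 had 1036 and 1083 counts, and TEAD4 370 and 373. The effective length (the mean length of a gene's transcripts weighted by their abundance, less the part where no read can start) was 7308 nt and 6327 nt for TEAD1 and 1362 nt and 1391 nt for TEAD4. TEAD1 thus gave the most reads of the family, and TEAD4 the most reads per effective length.

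**Figure D2:**
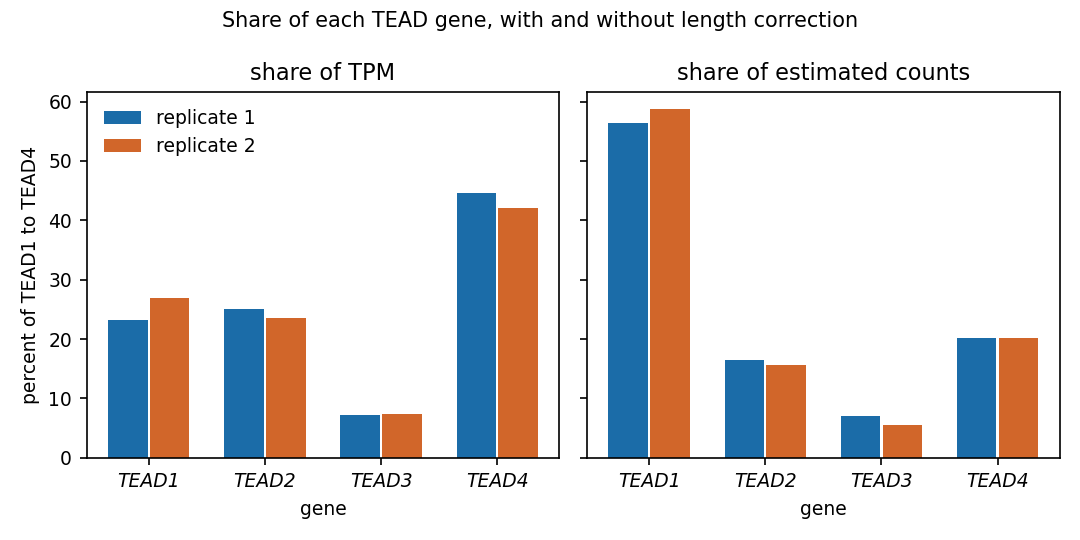
Share of each TEAD gene in the family's sum, in TPM (left) and in estimated counts (right), in percent; bars are single replicates. TEAD4 is highest in TPM with 43.3% on average and TEAD1 in counts with 57.5%.

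TEAD3 and TEAD4 were the TEAD genes whose estimated counts were not whole. Such counts mark a gene that shares reads with another, though whole counts do not exclude sharing. The counts of TEAD3 and TEAD4 were 129.16 and 369.84 in replicate 1 and 101.23 and 372.77 in replicate 2. Their sums were whole, 499 and 474. A search of all annotated transcripts for the 50-mers of each gene, 50 nt being the read length, found 7 that TEAD3 and TEAD4 have in common, and none shared by any other pair of the 10 genes. These 7 form a single run of 56 nt. In TEAD3 the run lies in coding exons 12 and 13 of ENST00000338863, at chr6:35443113-35443160 and chr6:35442927-35442934 (GRCh37, minus strand). In TEAD4 it lies in coding exons 12 and 13 of ENST00000359864, at chr12:3149378-3149425 and chr12:3149531-3149538 (plus strand). The run is shown with the closest windows of TEAD1 (chr11:12951826-12951873 and chr11:12958656-12958663, plus strand) and TEAD2 (chr19:49845695-49845742 and chr19:49844687-49844694, minus strand), because it is the stretch at which reads of this family cannot be told apart. All are read 5′ to 3′ along the transcript from the GENCODE sequences, and capitals mark bases that differ from TEAD3.
TEAD3: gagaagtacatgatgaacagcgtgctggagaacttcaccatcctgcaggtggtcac
TEAD4: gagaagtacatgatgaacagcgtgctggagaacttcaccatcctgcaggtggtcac
TEAD2: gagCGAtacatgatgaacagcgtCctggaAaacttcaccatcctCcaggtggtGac
TEAD1: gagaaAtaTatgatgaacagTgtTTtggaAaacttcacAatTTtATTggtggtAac
TEAD2 differed from the run at 7 of 56 bases, and TEAD1 at 13. The longest stretch identical to TEAD3 was 17 nt in TEAD2 and 11 nt in TEAD1, shorter than a read. The shared 50-mers were 0.235% of those of TEAD3 and 0.280% of those of TEAD4. Of 3 quantified TEAD3 transcripts 2 were matched and searched, so a run in the other would be missed. The posterior SD of the count, the uncertainty that RSEM gives to the sharing of reads, was 0.37 reads for both genes in replicate 1 and 0.49 for both in replicate 2. Both were below the counting error, which was 11.4 and 10.1 reads for TEAD3 (the square root of its count).

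LATS1 and LATS2 encode the kinases that phosphorylate YAP and TAZ. LATS1, on chromosome 6 from 149979289 to 150039241 (minus strand), had a TPM of 33.6 in replicate 1 and 33.1 in replicate 2, from 1183 and 1209 counts, and was second of the 10 genes. LATS2, on chromosome 13 from 21547175 to 21635725 (minus strand), had a TPM of 5.69 and 4.36, from 164 and 133 counts. The ranges did not overlap, and LATS1 was higher by 5.90-fold in replicate 1 and 7.58-fold in replicate 2. The log2 ratio was 2.74 ± 0.26 (SD, n = 2). Both genes had whole counts and a posterior SD of 0 in both replicates. LATS1 also exceeded the YAP1 level, by 1.24-fold ± 0.00644 in TPM (SD, n = 2). This SD is the spread between the replicate ratios and leaves out counting error. By the RSEM intervals LATS1 and YAP1 were not apart.

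AMOTL1 and AMOTL2 encode scaffold proteins of the angiomotin family. AMOTL1, on chromosome 11 from 94439597 to 94609913 (plus strand), had a TPM of 25.7 in replicate 1 and 23.0 in replicate 2, from 1129 and 1095 counts. AMOTL2, on chromosome 3 from 134074189 to 134094321 (minus strand), was the lowest of the 10 genes with a TPM of 3.96 and 4.37, from 126 and 125 counts. AMOTL1 was higher by 6.50-fold and 5.25-fold, and the log2 ratio was 2.55 ± 0.22 (SD, n = 2). The ratio differed between the deposited estimates. The posterior mean TPM of AMOTL2 was 7.06 and 7.55, which is 1.75 times its TPM on average, and the log2 ratio was then 1.70. Its TPM lay below its own RSEM interval in both replicates (5.07 to 9.12 and 5.37 to 9.84), as the TPM of 12.2% of detected protein-coding genes lay outside theirs in both. With posterior means AMOTL2 was above TEAD3, at 6.31, and LATS2, at 5.23. The lower 3 genes remained TEAD3, LATS2 and AMOTL2.

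The third angiomotin gene, AMOT, is a gene of the pathway lists and far exceeded both paralogues. Its TPM was 788 in replicate 1 and 757 in replicate 2, from 21480 and 20002 counts. This was 31.8-fold ± 1.67 the TPM of AMOTL1 and 186-fold ± 18.3 that of AMOTL2 (SD, n = 2). Of the summed TPM of the 3 angiomotin genes, AMOT held 96.4% ± 0.104, AMOTL1 3.04% ± 0.156 and AMOTL2 0.521% ± 0.0517 (SD, n = 2). The posterior mean TPM of AMOTL2 was 1.75 times its TPM, so its fold and share may differ with that estimate by more than these SDs. AMOT was also 28.8-fold ± 0.651 the TPM of YAP1. No 50-mer of AMOTL1 or AMOTL2 occurred in a transcript of AMOT.

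The libraries were compared gene by gene to learn how far the levels of the 10 genes can be trusted. The counts of each gene were set against the library sizes in a two-sided exact binomial test with Benjamini-Hochberg adjustment over 17920 genes. At an adjusted p of 0.05, 3.88% of all genes and 3.3% of protein-coding genes differed, and 0 of the 10 did. This test compares these libraries, not conditions. The smallest unadjusted p of the 10 belonged to TEAD1, with 1036 counts in replicate 1 and 1083 in replicate 2 (exact binomial p = 0.0238, adjusted p = 0.252). It was the only gene of the 10 with an unadjusted p under 0.05, a level reached by 13.3% of all genes. The next was LATS1 (exact binomial p = 0.0656, adjusted p = 0.427). On the log2 scale of TMM-scaled counts the differences of replicate 2 from replicate 1 ran from -0.27 for TEAD3 to 0.14 for TEAD1.

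TPM differed more between the replicates than counts did for several of the genes. For TEAD1 the log2 difference was 0.33 in TPM and 0.14 in counts, and its effective length differed by -0.21. For WWTR1 it was -0.26 in TPM and 0.04 in counts, with an effective length of 2648 nt in replicate 1 and 3206 nt in replicate 2. TEAD3 went in opposite directions. It had 129 counts in replicate 1 and 101 in replicate 2, but a TPM of 5.90 and 6.60, and its effective length was 2935 nt and 2135 nt. That difference in length, -0.46 on the log2 scale, was at percentile 95.3 of detected protein-coding genes by size. The median size over the 10 genes was 0.12, and over detected protein-coding genes it was 0.08. Counts and TPM differed in sign for 5 of the 10 genes (LATS1, YAP1, AMOTL1, WWTR1 and TEAD3), and for 24.9% of detected protein-coding genes. For LATS1 and YAP1 the TPM difference was -0.02 and -0.01, close to 0. Their length differences, 0.109 and 0.008, did not exceed their count differences of 0.109 and 0.020. TPM is a count divided by effective length and scaled to a fixed total, whereas the counts here were scaled by TMM. A shift in the weights of a gene's transcripts thus enters TPM directly, and a difference in scaling enters the comparison for every gene.

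**Figure D3:**
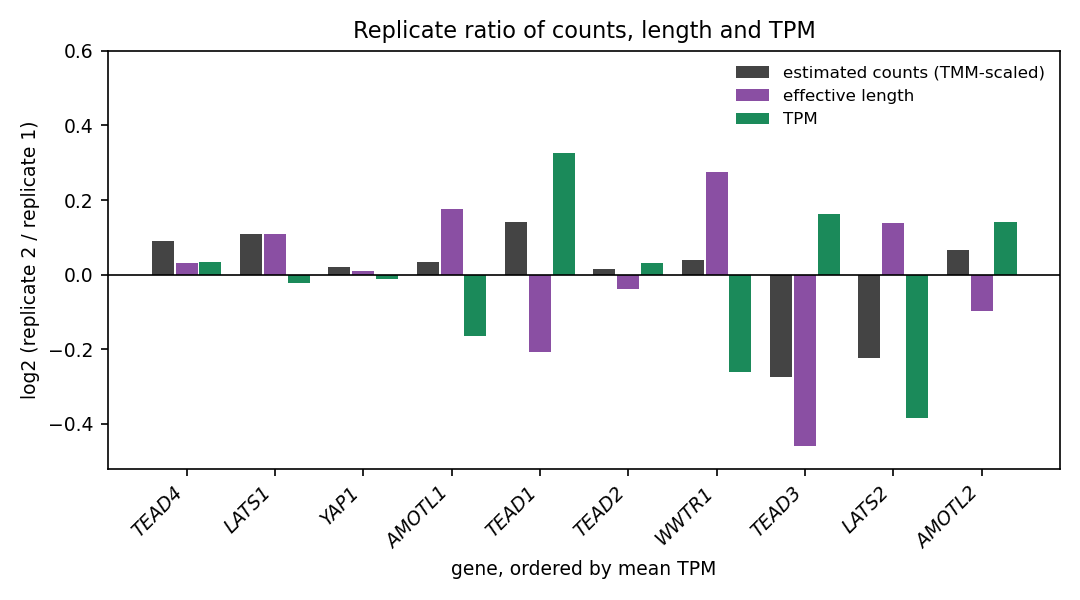
Log2 ratio of replicate 2 to replicate 1 for each gene, in TMM-scaled estimated counts, effective length and TPM; bars are single ratios. TEAD3 shows a negative bar in counts (-0.27), a larger negative one in length (-0.46) and a positive one in TPM (0.16).

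Whole counts in both replicates, within 0.005 counts, were found for 5 of the 10 genes (LATS1, LATS2, TEAD1, TEAD2 and AMOTL2) and for 50.6% of detected protein-coding genes. The posterior SD was at most 0.1 of the square root of the count, the counting error, in both replicates for 7 of the 10 and for 73.8% of detected protein-coding genes. The highest of these ratios was 0.144, for AMOTL2 in replicate 2. No 50-mer was shared between YAP1 and WWTR1, between LATS1 and LATS2 or between AMOTL1 and AMOTL2. YAP1 shared 29 with its processed pseudogene YAP1P1, which had 1.02 counts in replicate 1, and the sum with the 633.98 counts of YAP1 was 635. The posterior SD was 2.12 and 3.04 reads for YAP1, and 0.18 and 0 for YAP1P1. AMOTL1 shared 447 with ENSG00000256469, a long non-coding RNA gene on the opposite strand whose exons overlap its own by 496 nt. This gene had 1.73 counts in replicate 1, and with the 1129.27 counts of AMOTL1 the sum was 1131. The 50-mers of this pair were shared only on opposite strands. WWTR1 shared 661 with its antisense gene and 3 to 55 with each of 6 other genes, among them THRAP3 and NIN. LATS1 shared 215 with 4 genes, of which 209 were with the antisense gene ENSG00000278899, which has no row among the genes measured. The antisense genes over YAP1 (ENSG00000254422) and WWTR1 (WWTR1-AS1) had at most 2 counts in a replicate. TEAD2 overlaps the exons of CD37 by 319 nt on the opposite strand and shared 227 50-mers with it, 6.98% of those of TEAD2. CD37 had 65 and 41.6 counts against 302 and 289 for TEAD2. The counts of TEAD2 were whole, but their posterior SD was 2.19 and 1.20 reads. AMOTL2 contains the pseudogene RPL39P5 on its own strand over 187 nt, which had 0 counts. A search with exact 50-mers leaves out reads with mismatches.

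The other genes of the pathway were read from lists. Of 57 pathway genes 53 were detected, which is 93.0% beside 63.7% of all protein-coding genes. The median TPM over all 57 was 26.9, beside 6.50 over all protein-coding genes. Over detected genes only it was 31.6, beside 21.2 for protein-coding genes. The lists hold well-studied genes and were not drawn at random. All 7 further genes of the kinase core were detected. STK3 and STK4, the kinases that activate LATS1 and LATS2, had TPM values of 15.3 ± 0.997 and 36.4 ± 0.643, and their partner SAV1 had 22.8 ± 0.467 (SD, n = 2). MOB1A, a coactivator of the LATS kinases, was the highest of the core with 72.7 ± 2.10, and its paralogue MOB1B had 12.8 ± 2.21 (SD, n = 2). The related kinases STK38 and STK38L had 20.8 ± 2.23 and 36.3 ± 0.0919 (SD, n = 2). LATS2 was the lowest gene of the whole core.

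Of 25 upstream regulators 23 were detected. NF2, the tumour suppressor merlin, had a TPM of 56.4 ± 5.70, and WWC1 (KIBRA) had 22.9 ± 0.127 (SD, n = 2). WWC3 was not detected, with 0 counts in replicate 1 and 1 in replicate 2, and neither was the polarity gene CRB3, with 2 and 6 counts. Among the kinases that can act on LATS beside STK3 and STK4, MAP4K4 had 65.9 ± 7.89 and TAOK2 47.9 ± 1.98, while MAP4K1 had 1.38 ± 0.0990 (SD, n = 2). The atypical cadherins FAT4 and DCHS1 were low, with 3.29 ± 0.156 and 1.03 ± 0.0283 (SD, n = 2). All 10 genes of the STRIPAK complex, a phosphatase that turns off STK3 and STK4, were detected, from STRIP2 at 5.49 ± 1.00 to PPP2R1A at 245 ± 10.0 (SD, n = 2).

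Genes for the retention and turnover of YAP and TAZ had the highest median of the lists. Of 11 such genes 10 were detected, with a median TPM of 159 over all 11. The 14-3-3 gene YWHAE, whose product holds phosphorylated proteins in the cytoplasm, had 1645 ± 142, while the 14-3-3 gene SFN was not detected, with 2 counts in replicate 1 and 0 in replicate 2. CSNK1E, a kinase that marks YAP for degradation, had 457 ± 44.5 (SD, n = 2). The VGLL proteins compete with YAP and TAZ for TEAD factors. VGLL4 had 27.2 ± 0.806, close to the YAP1 level, VGLL3 5.06 ± 0.233 and VGLL2 1.55 ± 0.177 (SD, n = 2), and VGLL1 had 0 counts in both replicates. By the exact binomial test with adjustment over all genes, 4 of 53 tested pathway genes differed between the libraries, beside 3.88% of all genes, and 14 of the 53 had an unadjusted p under 0.05, beside 13.3% of all genes. YWHAE and CSNK1E were higher in replicate 1, and TAOK1 and YWHAZ in replicate 2.

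**Figure D4:**
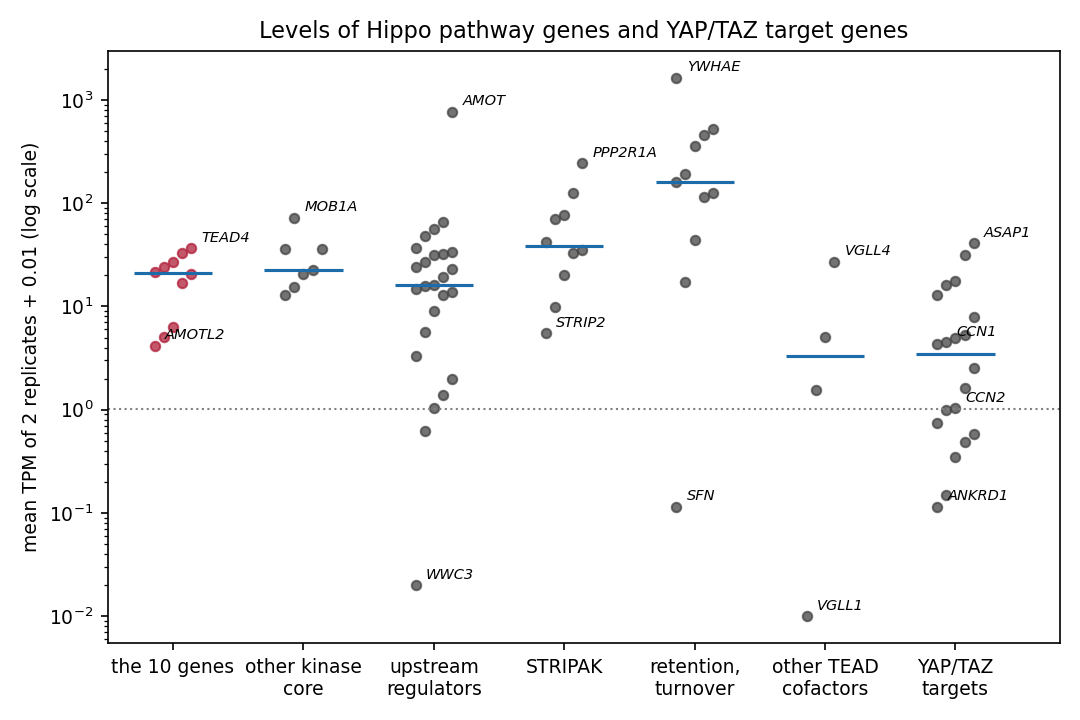
Mean TPM of both replicates plus 0.01 (log scale) of the 10 genes, of 5 lists of pathway genes and of YAP/TAZ target genes; points are genes, bars are medians over each list and the dotted line marks a TPM of 1. AMOT and YWHAE stand at the top, and the target genes reach from ASAP1 at 41.0 down to ANKRD1 at 0.105.

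Genes known as targets of YAP and TAZ were read from a list of 20, to which AMOTL2 and LATS2 would also belong. A total of 12 were detected, which is 60.0% beside 63.7% of all protein-coding genes, and the median TPM over all 20 was 3.43 beside 6.50. The count depended on the threshold and was 19 at 0.1 TPM and 6 at 5 TPM. It was 15 with a posterior mean TPM of at least 1 and 16 with at least 10 estimated counts in each replicate. The shares of all genes under these settings were not computed, so these counts have no background beside them. The targets most used as readouts were low. CCN1 had a TPM of 4.66 in replicate 1 and 4.29 in replicate 2, and CCN2 had 1.05 and 0.99. ANKRD1 had 1 count in replicate 1 and 2 in replicate 2, and AXL had 4 counts in each. Others were higher, with ASAP1 at 41.0 ± 2.57, FOXF2 at 31.3 ± 0.318, CRIM1 at 17.8 ± 6.41 and PTPN14, itself an inhibitor of YAP, at 16.0 ± 1.44 (SD, n = 2). The 2 targets among the 10 genes, LATS2 at 5.03 ± 0.940 and AMOTL2 at 4.17 ± 0.290 (SD, n = 2), lay near CCN1 and GADD45B, which had 4.48 ± 0.262 and 4.96 ± 1.11 (SD, n = 2). Of 17 targets tested, 0 differed between the libraries by the exact binomial test with adjustment, beside 3.88% of all genes, and 1 had an unadjusted p under 0.05, beside 13.3%. Counts this small over 17 genes show nothing particular to the targets. With 1 group, no level here can be tied to the activity of YAP or TAZ.

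Promoters were searched for the core of the site that TEAD factors bind, GGAATG or its reverse complement CATTCC, so that both strands were covered. Each promoter was the stretch from 250 bases before to 50 bases after a start site in RefSeq (GRCh38.p14). A match was present in 14.0% of 35116 promoters and in at least 1 promoter of 16.7% of 27305 genes. Promoters were found for 8 of the 10 genes, and 3 of these held a match, YAP1, AMOTL2 and LATS2. Among 15 target genes with a promoter 7 held a match, with 3 matches in CCN2, 2 in ANKRD1 and 2 in NUAK2. A match is a description and not a bound site. The 3 promoters that hold a match are shown, because LATS2 and AMOTL2 are both members of the pathway and targets of its output. They are given along the strand of each gene, with the match in capitals, for YAP1 at chr11:102110197-102110496 (plus strand), for AMOTL2 at chr3:134374398-134374697 (minus strand) and for LATS2 at chr13:21061537-21061836 (minus strand), all in GRCh38.p14.
YAP1: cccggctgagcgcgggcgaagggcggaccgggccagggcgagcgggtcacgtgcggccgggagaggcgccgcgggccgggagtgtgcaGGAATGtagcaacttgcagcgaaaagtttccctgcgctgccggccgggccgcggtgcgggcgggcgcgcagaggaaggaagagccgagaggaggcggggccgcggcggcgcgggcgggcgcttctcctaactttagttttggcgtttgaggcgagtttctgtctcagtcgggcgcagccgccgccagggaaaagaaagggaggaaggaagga
AMOTL2: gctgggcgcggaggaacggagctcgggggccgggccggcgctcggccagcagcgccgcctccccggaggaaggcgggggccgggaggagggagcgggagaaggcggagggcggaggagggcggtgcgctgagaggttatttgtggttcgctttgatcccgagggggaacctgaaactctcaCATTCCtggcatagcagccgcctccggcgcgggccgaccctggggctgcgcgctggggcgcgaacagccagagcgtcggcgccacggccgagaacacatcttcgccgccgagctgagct
LATS2: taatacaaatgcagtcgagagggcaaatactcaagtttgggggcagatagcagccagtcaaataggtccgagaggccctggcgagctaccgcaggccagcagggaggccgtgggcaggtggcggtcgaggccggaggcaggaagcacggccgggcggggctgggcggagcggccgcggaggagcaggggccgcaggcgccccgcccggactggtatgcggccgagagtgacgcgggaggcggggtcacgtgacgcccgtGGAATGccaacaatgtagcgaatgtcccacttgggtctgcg
The match lies before the start site in YAP1 and AMOTL2 and after it in LATS2. A second RefSeq promoter of AMOTL2 held none.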

How the data were processed

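Poly(A)+ RNA of HEK293T cells was sequenced in 2 libraries. The authors trimmed reads with Trimmomatic and aligned them to GRCh37 with STAR. The submitters' processing notes list Trimmomatic 0.36, STAR 2.6.1c and RSEM 1.3.1. The study's methods name featureCounts for counting, whereas the deposited columns are those of RSEM. Estimated counts (in which RSEM divides a read among the genes it fits), TPM values, FPKM values (both scaled by effective length) and scores for the posterior SD and TPM interval were deposited by the authors. No source used here states a strand setting. A table of the pooled reads served as an alternative.

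Symbols and coordinates came from GENCODE release 44 on GRCh37 (96.1% of 57736 identifiers matched) and 50-mers from its transcripts. Of the transcripts of the 10 genes, 1 of TEAD3, 1 of LATS2, 1 of AMOTL1 and 2 of TEAD1 were not matched. Counts rounded to whole numbers were tested with a two-sided exact binomial test (scipy 1.17.1) against library sizes scaled by TMM in edgeR 4.0.16 with R 4.3.3, over genes with at least 10 summed counts, and the test was checked on simulated data. Log2 ratios of counts used 0.5 added counts. No test between genes was made with 2 replicates.

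All 10 genes and any gene of the pathway, target and marker lists, or sharing 50-mers or exons with one of the 10, could be named. The 10 genes were set by name, with no threshold on a measured value, but they and the lists were chosen with earlier results of these data known, so list medians and counts are descriptions. No gene was named for a like pattern, since 2 libraries give no measure of it. Alternatives were other thresholds, FPKM, posterior means, other scalings and lengths, the pooled table and leaving out each replicate. Protein sequences were not analysed here, and the result of a further marker list is not reported here. The promoter search was added after the levels were seen.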

Additional observations from a re-analysis of the deposited data

How the results depend on the processing

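No paired analysis was possible because only 1 group was sequenced. All 10 genes were detected under every alternative except a TPM of at least 5, which left 8. None of the 10 differed between the libraries by the exact binomial test under RLE or total-count scaling, with minimum summed counts of 1 or 100, with posterior mean counts or with adjustment over protein-coding genes. The number of target genes detected was 19 with a TPM of 0.1, 6 with a TPM of 5, 15 with a posterior mean TPM of 1 and 16 with 10 estimated counts. No share of all genes was computed under these settings. With posterior mean TPM the log2 ratio of YAP1 to WWTR1 was 0.32 and that of AMOTL1 to AMOTL2 was 1.70, and with counts over the longest annotated transcript the latter was 2.26. With these 2 alternatives the ratio of LATS1 to LATS2 and the share of TEAD4 in the TEAD sum moved by less than the SD of the replicates. Leaving out 1 of 2 replicates always moves a mean by less than that SD, so that alternative could not show a change. RSEM intervals in place of Poisson intervals, an alternative added after the data were seen, left 29 of 45 pairs apart. Rescaling TPM to protein-coding genes raised all 10 levels, TEAD4 to 53.0, since these genes held 70.7% and 68.5% of the TPM. Other causes were not tested. With 2 replicates and 101 to 1209 counts a gene, counting error was largest relative to the count for the lower 3 genes. For AMOTL2 the choice of estimate moved the level further. Its posterior mean TPM, 7.06 and 7.55, lay above its Poisson intervals (3.30 to 4.71 and 3.64 to 5.21).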
